A study of Mus musculus with 10 samples.

Results

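Mouse chromosome 8 was described here as 12456 bins of 10 kb, which are all bins of that chromosome (mm9 coordinates) that held the midpoint of at least 1 read in any of 10 chromatin immunoprecipitation libraries. They are 12456 of 253411 such bins over all chromosomes, and 225117 bins of the other 18 autosomes served for comparison. The first bin with reads began at position 3000001 and the last ended at 131740000. Up to that last bin, 718 further positions of the 10 kb grid held no read in any library. At the edge of the rule, 11 member bins held 1 read in all 10 libraries together and 97 held under 20, against a median of 239 and a highest total of 2795. A division at 80 Mb, taken with the choice of the chromosome, put 7303 bins before it and 5153 beyond it. The chromosome was chosen because its H3K27me3 read density was already known to be high in part of these libraries, so its density and its ratio to the line E14 are given as descriptions, with no test.

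The series followed histone marks during X inactivation in 3 mouse embryonic stem (ES) cell lines, with 1 library per line, condition and mark. XT67E1 (strain label C3H/Pgk*129) was profiled for both H3K4me3 and H3K27me3 in the undifferentiated state, after 4 days with all-trans retinoic acid (atRA), and as embryoid bodies (EBs) after 10 days without the cytokine LIF. For LF2 and E14 (both with the strain label 129/Ola) only H3K27me3 was profiled, before differentiation and in 10-day EBs. Undifferentiated cells of the 3 lines were kept with serum and LIF on gelatin. E14 is known as a male line and both XT67E1 and LF2 as female ones, so every ratio to E14 compares lines that differ in sex, and XT67E1 differs from E14 in strain as well. Each line stands for itself, since no second line of its kind was profiled, and the labels name no separate clones or cultures.

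H3K4me3 sits at the start sites of active genes, and H3K27me3 is set by Polycomb repressive complexes over silent developmental genes and, at a lower level, over wide stretches of chromatin. In both kinds of library a part of the reads comes from DNA carried along without the mark, so a chromosome that is present in more copies yields more reads everywhere, in marked and unmarked stretches. Mouse ES cell lines are known to gain whole chromosomes in culture, and chromosome 8 is among those often gained. For a chromosome with 3 copies beside autosomes with 2, the ratio would be 1.5, and this value is used below only as a mark on the scale. No library of unprecipitated DNA was analysed here, so more DNA and more of a mark per DNA copy cannot be told apart.

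Every H3K4me3 library held 2252395 reads, every XT67E1 H3K27me3 library 8380007 and every LF2 and E14 library 4531733, so depth was equal within each of these 3 sets and differed between XT67E1 and E14. Between 99.1% and 99.8% of the chromosome 8 bins held a read in each library. The median bin of chromosome 8 held 10 or 11 reads for H3K4me3, 42 to 44 for H3K27me3 in XT67E1, 17 and 21 in LF2, and 16 in each E14 library. Intervals below are exact binomial 95% intervals that cover counting error only. With 1 library per group there was no replicate check of a comparison between libraries. No annotation of mm9 was used, so bins carry no gene names and the ES cell state of the samples was not checked against marker genes.

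Reads were dense on chromosome 8 in every XT67E1 and LF2 library and near the autosomal mean in both E14 libraries. Relative density is the number of reads per bin on chromosome 8 divided by that on the other 18 autosomes. For H3K27me3 in XT67E1 it was 1.56 in undifferentiated cells, 1.59 after atRA and 1.54 in EBs (1.54 to 1.55). The chromosome was the densest autosome in each of the 3 libraries, and the next one, chromosome 11, reached 1.17, 1.21 and 1.21. In LF2 the value was 1.27 in undifferentiated cells (1.27 to 1.28) and 1.44 in EBs (1.44 to 1.45), again above chromosome 11, which had 1.25 and 1.21. E14 had 1.01 in undifferentiated cells (1.00 to 1.01) and 1.02 in EBs (1.02 to 1.03), and chromosome 8 ranked 8 and 7 among the 19 autosomes there. In RPM (reads per 1e6 autosomal reads) per bin, chromosome 8 had 6.38 against 4.09 for the others in undifferentiated XT67E1, 5.28 against 4.15 in undifferentiated LF2, and 4.23 against 4.21 in undifferentiated E14.

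The H3K4me3 libraries of XT67E1 gave nearly the same relative density on chromosome 8 as its H3K27me3 libraries. Relative density was 1.50 in undifferentiated cells (1.49 to 1.50), 1.49 after atRA (1.48 to 1.49) and 1.50 in EBs (1.49 to 1.50). Chromosome 8 was again the densest autosome, above chromosome 11 with 1.35, 1.29 and 1.28. It took 7.65%, 7.59% and 7.64% of the autosomal H3K4me3 reads, and 7.95%, 8.09% and 7.86% of the autosomal H3K27me3 reads of the same line. In E14 the share of H3K27me3 reads was 5.27% and 5.36%. A high relative density was thus present with both antibodies. For H3K4me3 there was no E14 library, so what the lines share could not be removed.

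**Figure D1:**
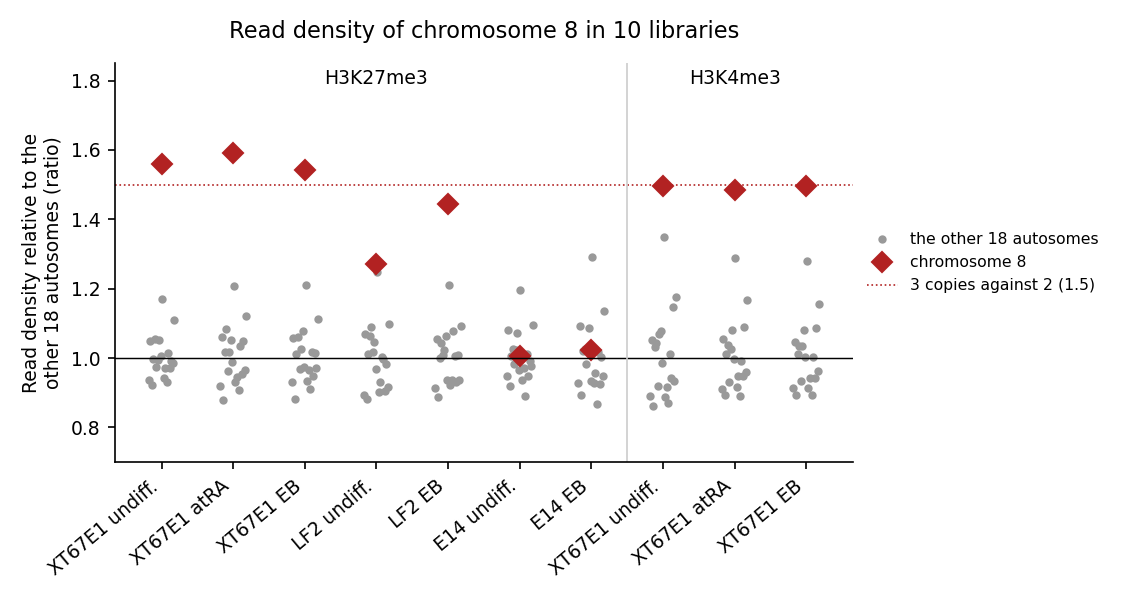
Read density of each autosome relative to the other 18 autosomes (vertical axis, ratio) in the 10 libraries (horizontal axis). Diamonds show chromosome 8, which lies at 1.49 to 1.59 in the XT67E1 libraries of both marks, at 1.27 and 1.44 in LF2 and at 1.01 and 1.02 in E14; grey points show each of the other 18 autosomes relative to their pooled density, and the dotted line marks 1.5.

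Part of the density of a chromosome follows its content of genes and marked regions, and the ratio to the E14 library of the same condition removes what the lines share. Undifferentiated XT67E1 had 1.55 times the H3K27me3 density of E14 on chromosome 8 (1.54 to 1.56). The same ratio for the other 18 autosomes ran from 0.971 (chromosome 7) to 1.04 (chromosome 14). XT67E1 EBs had 1.51 times the density of E14 EBs. For XT67E1 after atRA, only undifferentiated E14 was at hand, and the ratio was 1.58 (1.58 to 1.59), with the other autosomes between 0.959 and 1.06. In all 3 conditions of XT67E1, chromosome 8 therefore lay far outside the range of the other autosomes.

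LF2 lay closer to E14 than XT67E1 did. The ratio was 1.26 in undifferentiated LF2 (1.26 to 1.27), where the other autosomes ran from 0.937 (chromosome 18) to 1.13 (chromosome 14). In LF2 EBs it was 1.41, where the highest of the other autosomes was again chromosome 14, at 1.24. Chromosome 6 was next in both LF2 libraries, at 1.11 in undifferentiated cells and 1.03 in EBs. Leaving chromosome 14 out of the comparison moved the chromosome 8 ratio to 1.27 and 1.43.

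The whole length of chromosome 8 contributed to the XT67E1 excess, whereas in LF2 the excess was concentrated beyond 80 Mb. In undifferentiated XT67E1 the ratio to E14 was 1.54 before 80 Mb (1.53 to 1.55) and 1.56 beyond it (1.55 to 1.57), and in EBs it was 1.51 and 1.50. After atRA the 2 parts were further apart, at 1.54 and 1.64. In undifferentiated LF2 the ratio was 1.13 before 80 Mb (1.12 to 1.14) and 1.41 beyond it (1.40 to 1.42). In LF2 EBs it was 1.13 and 1.71. The part before 80 Mb thus had like ratios in both LF2 libraries, near the 1.13 of chromosome 14 in undifferentiated cells and under its 1.24 in EBs, while the part beyond 80 Mb was above 1.5 in EBs and below it in undifferentiated cells.

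Windows of 1 Mb showed the same picture at finer scale. Of 125 windows on chromosome 8, 120 lay above the central 95% of 2263 windows of the other autosomes in undifferentiated XT67E1, with a median log2 ratio to E14 of 0.64, and 120 did so in XT67E1 EBs, with a median of 0.61. After atRA 109 windows did. In LF2 EBs 50 of the 52 windows beyond 80 Mb did and 0 of the 73 before it. The highest of those 73 windows had a log2 ratio of 0.34, under the median of 0.82 beyond the division. In undifferentiated LF2 the 2 parts overlapped, since 27 windows beyond and 5 before were above the range, with medians of 0.43 and 0.11 and a lowest value of -0.02 beyond 80 Mb. In LF2 the split that left the least variance within its 2 parts fell at 80 Mb with 1 Mb windows in both libraries, and at 84 Mb (undifferentiated) and 80 Mb (EBs) with 2 Mb windows. The division was taken from these LF2 values, so this only describes it.

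**Figure D2:**
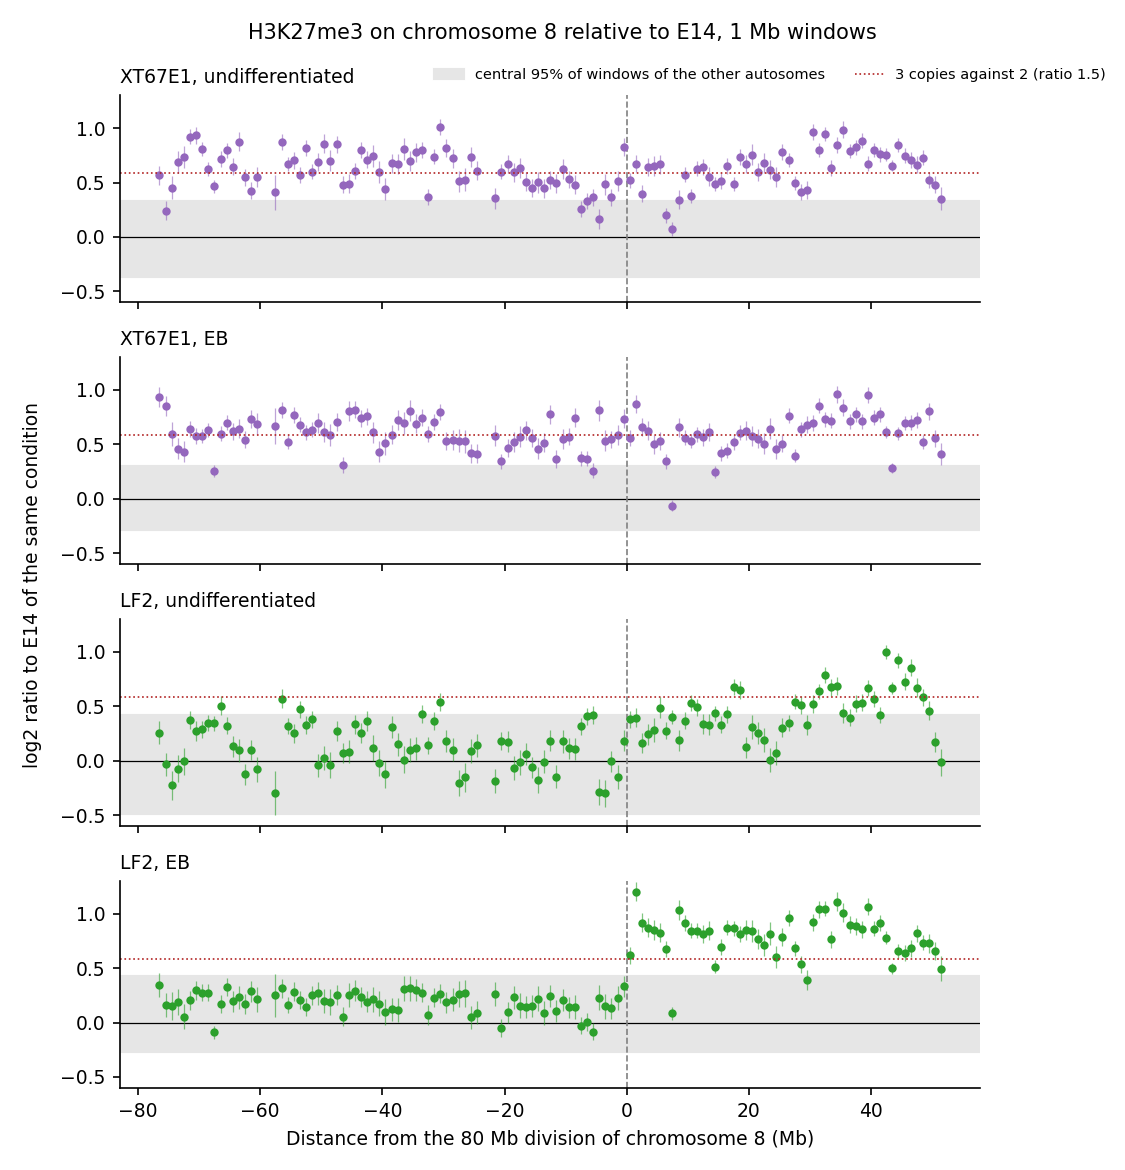
H3K27me3 ratio to E14 of the same condition (log2, vertical axis) in 1 Mb windows along chromosome 8, placed by distance from the 80 Mb division (horizontal axis, Mb), for undifferentiated cells and EBs of XT67E1 and LF2. Bars are 95% counting intervals, the grey band is the central 95% of windows of the other autosomes and the dotted line is a ratio of 1.5; XT67E1 windows lie near the line over the whole length, and those of LF2 EBs step up at 0, from a median of 0.20 to one of 0.82.

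Around the division, windows of 0.5 Mb in LF2 EBs had ratios to E14 EBs of 1.11, 1.22 and 1.10 from 78 to 79.5 Mb, and 1.45, 1.48 and 1.57 in the next 3 windows. From 81 Mb on, the ratios were 2.24, 2.36 and 2.11, and 1.72 in the window at 82.5 Mb. The rise was thus spread over 3 such windows, and XT67E1 EBs also had a higher value, 1.95, at 79.5 Mb. Windows of 10 Mb in LF2 EBs gave between 1.07 and 1.17 in the 8 windows before 80 Mb and between 1.52 and 1.95 in the 6 beyond it. In undifferentiated LF2 the 10 Mb ratios beyond 80 Mb were uneven, from 1.08 in the short last window and 1.26 at 80 Mb to 1.63 at 120 Mb.

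Single windows stood apart from this general level. The highest window of undifferentiated XT67E1 began at 49 Mb, with 7203 reads against 2023 in E14 and a log2 ratio of 1.01. In XT67E1 EBs it began at 114 Mb (0.96), after atRA at 124 Mb (1.22), in undifferentiated LF2 at 122 Mb (1.00) and in LF2 EBs at 81 Mb (1.20). The lowest windows began at 76 Mb in undifferentiated LF2 (-0.30), at 12 Mb in LF2 EBs (-0.09) and at 75 Mb after atRA (0.04). In both other XT67E1 libraries the lowest window began at 87 Mb, with log2 ratios of 0.07 in undifferentiated cells and -0.06 in EBs.

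In XT67E1 and E14 this 87 Mb window also stood apart between conditions. From undifferentiated cells to EBs its H3K27me3 reads went from 3193 to 4603 in E14, a log2 ratio of 0.53 that was the highest of all 1 Mb windows of chromosome 8 in that line. In XT67E1 they went from 5937 to 7716, and the log2 ratio of 0.39 was again the highest. In LF2 they went from 4114 to 4651, and the log2 ratio of 0.21 was under the LF2 median of 0.41 beyond 80 Mb. H3K4me3 reads of XT67E1 in the window went from 4493 to 3203 after atRA and to 3169 in EBs, log2 ratios of -0.49 and -0.50, which were the lowest on the chromosome. In XT67E1 the 2 marks thus differed in opposite directions there, and E14, the reference of the ratio, was itself high in this window.

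Read density was then compared over 3 kinds of bin, to see whether the excess followed marked regions. H3K27me3-rich bins held at least 3 times the mean autosomal number of E14 reads, H3K4me3-rich bins at least 3 times the mean of the H3K4me3 libraries, and quiet bins at most the median number of E14 reads without being H3K4me3-rich. Chromosome 8 had 5766 quiet bins (46.3% of its bins, against 49.3% on the other autosomes), 623 H3K4me3-rich bins (against 3.57% of the bins of the other autosomes) and 229 H3K27me3-rich bins (1.84% against 1.94%). Beyond 80 Mb the chromosome was richer in marked bins, with 6.44% H3K4me3-rich and 2.62% H3K27me3-rich against 3.98% and 1.29% before it, and quiet bins were fewer, at 34.3% against 54.7%.

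In XT67E1 the ratio to E14, relative to the same kind of bin on the other autosomes, was near 1.5 in each kind. Undifferentiated cells had 1.54 in quiet bins (1.53 to 1.55), 1.48 in H3K4me3-rich bins (1.45 to 1.50) and 1.50 in H3K27me3-rich bins (1.48 to 1.52). After atRA the values were 1.57, 1.60 and 1.57, and in EBs 1.52, 1.43 and 1.47. The 71 bins rich in both marks had the lowest ratio in undifferentiated cells, 1.41 (1.37 to 1.45), and there the other autosomes spread widely, from 0.787 to 1.49. The chromosome was also split into 10 groups of bins by E14 coverage, each relative to the same group on the other autosomes. It gave ratios of 1.53 to 1.57 in undifferentiated XT67E1, 1.55 to 1.62 after atRA and 1.48 to 1.55 in EBs. Over the whole chromosome, the XT67E1 excess relative to bins of like coverage on the other autosomes was thus of like size in sparse and dense bins. Within the parts before and beyond the division it was less even. Beyond the division, undifferentiated cells had 1.55 in the sparsest and 1.63 in the densest group. The values there were 1.58 and 1.70 after atRA, and 1.73 and 1.52 in EBs. Before the division the sparsest and densest groups had 1.57 and 1.49, 1.58 and 1.49, and 1.51 and 1.47, in the same order. The reads themselves were less even. Undifferentiated XT67E1 had 18484 reads against 5547 in E14 in the sparsest group and 136736 against 57173 in the densest.

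In LF2 the 3 kinds of bin had close ratios in undifferentiated cells and differed in EBs beyond 80 Mb. In undifferentiated LF2 the 3 kinds of bin did not differ beyond their intervals before 80 Mb (1.16 quiet, 1.18 H3K4me3-rich, 1.16 H3K27me3-rich) or beyond it (1.35, 1.36 and 1.35). In LF2 EBs beyond 80 Mb, the ratio to E14 EBs was 1.83 in quiet bins, 1.58 in H3K4me3-rich bins and 1.48 in H3K27me3-rich bins. Each value is relative to the same kind of bin on the other autosomes, and the intervals did not overlap. Before 80 Mb the same library had 1.12, 1.04 and 1.07. Bins beyond 80 Mb were also split by E14 coverage, each group relative to the same group on the other autosomes. LF2 EBs had between 1.81 and 1.87 in the 8 sparser groups, 1.74 in the next and 1.65 in the densest. Lower values in the densest groups were not particular to LF2. XT67E1 EBs, set against the same E14 EB library, had 1.73 in the sparsest group there, 1.50 in the next to densest and 1.52 in the densest. Undifferentiated LF2 had 1.31 in the sparsest and 1.41 in the densest group there. Over the whole chromosome, where sparse groups hold more bins from before 80 Mb, LF2 EBs ran from 1.28 in the sparsest group to a highest value of 1.47, and undifferentiated LF2 from 1.18 to 1.31.

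**Figure D3:**
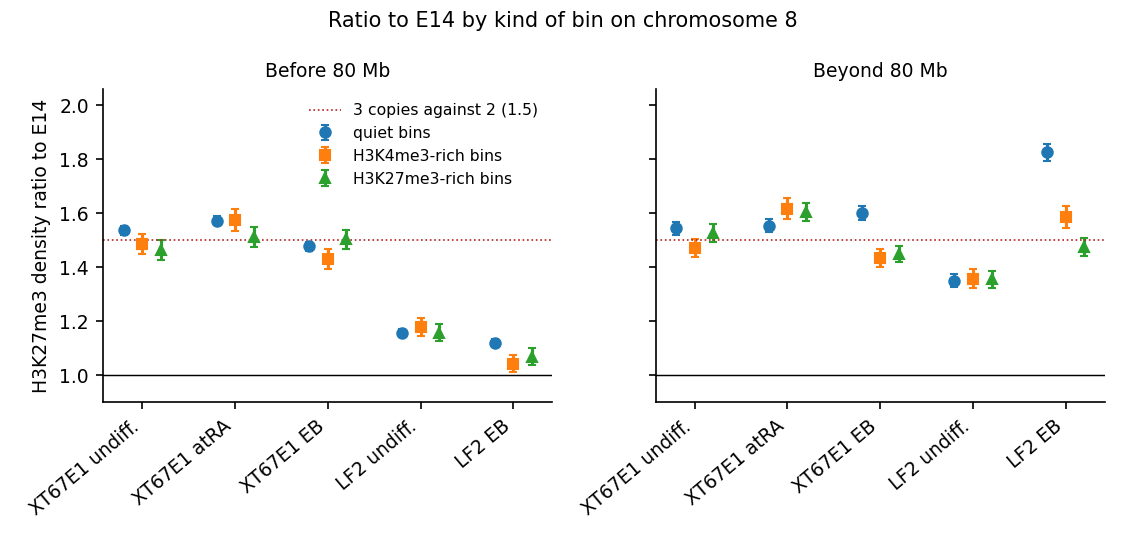
H3K27me3 density ratio to E14 (vertical axis) in quiet, H3K4me3-rich and H3K27me3-rich bins of chromosome 8, before 80 Mb (left) and beyond it (right), for the 5 XT67E1 and LF2 libraries (horizontal axis). Each density is relative to the same kind of bin on the other autosomes. Bars are 95% counting intervals and the dotted line is 1.5; XT67E1 values lie between 1.43 and 1.62 in both parts, and LF2 EBs reach 1.83 in quiet bins beyond 80 Mb.

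The median bin told the same story as the sums of reads. Over the 12021 chromosome 8 bins in which both libraries together held 20 or more reads, the median log2 ratio of undifferentiated XT67E1 to E14 was 0.59, against -0.01 on the other autosomes, and 86.3% of bins lay above 0 against 49.0%. In XT67E1 EBs the median was 0.61 against 0.04. LF2 had 0.24 against -0.06 in undifferentiated cells and 0.48 against 0.07 in EBs. These medians are scaled to all autosomal reads. On this scale H3K27me3-rich bins, which were chosen from E14 reads, had medians of 0.11 on chromosome 8 and -0.51 on the other autosomes in undifferentiated XT67E1. H3K4me3-rich bins had 0.11 and -0.50 there. In LF2 EBs the H3K27me3-rich medians were -0.09 and -0.45. In undifferentiated LF2 they were 0.35 and 0.01, above those of all bins.

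For H3K4me3 no E14 library was profiled, so relative density within XT67E1 is all that can be given. Quiet bins had 1.46 in each of the 3 conditions, above every other autosome (at most 1.21, 1.14 and 1.17). H3K27me3-rich bins had 1.59, 1.46 and 1.55 in undifferentiated cells, after atRA and in EBs. H3K4me3-rich bins had lower values, 1.23, 1.23 and 1.27, although these too exceeded every other autosome. These bins were chosen with the same reads, at a threshold common to all autosomes. With the threshold set on each chromosome's own mean, an alternative added after seeing the data, 504 bins remained in the class and the values were 1.39, 1.40 and 1.42. With a threshold of 2 times the mean they were 1.12, 1.11 and 1.16. Beyond 80 Mb relative H3K4me3 density was 1.76, 1.70 and 1.72, against 1.31, 1.33 and 1.34 before it. In E14, the H3K27me3 density also was higher beyond 80 Mb, at 1.15 and 1.20 against 0.903 and 0.901, so a difference between the 2 parts in a single library does not by itself separate the lines.

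Differentiation left the chromosome 8 density of XT67E1 and E14 close to its starting value and was accompanied by a higher density in LF2. EBs had 1.14 times the density of undifferentiated cells in LF2 (1.13 to 1.14), above the range of the other autosomes in that line (0.924 for chromosome 6 to 1.07 for chromosome 14). The ratio was 0.988 in XT67E1 and 1.02 in E14, both inside the range of the other autosomes. In LF2 the part before 80 Mb had 0.996 (0.989 to 1.00) and the part beyond it 1.26 (1.25 to 1.27). Quiet bins beyond 80 Mb had 1.34 relative to quiet bins of the other autosomes. Over all bins, the values beyond 80 Mb were 1.00 in XT67E1 and 1.04 in E14. With atRA, XT67E1 had 1.02 in H3K27me3, and H3K4me3 had 0.992 after atRA and 0.999 in EBs.

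Over the 3 lines, the log2 ratio of EBs to undifferentiated cells was 0.06 ± 0.11 (SD, n = 3), and the two-sided exact sign-flip test gave p = 0.5. Beyond 80 Mb it was 0.13 ± 0.18 (SD, n = 3; exact p = 0.25) and before 80 Mb -0.01 ± 0.02 (SD, n = 3; exact p = 0.25). The smallest p that 3 lines allow is 0.25, so this design cannot reach 0.05.

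Along the chromosome, the windows of LF2 EBs against undifferentiated LF2 had a median log2 ratio of 0.05 before 80 Mb and 0.41 beyond it. Of the 52 windows beyond 80 Mb, 26 lay above the central 95% of windows of the other autosomes, against 1 of 73 before. The best split of this comparison fell at 75 Mb with 1 Mb windows and at 76 Mb with 2 Mb windows. In XT67E1 5 of 125 windows lay above and 5 below that range, and in E14 5 above and 1 below. Of the 30 LF2 windows from 80 to 110 Mb 20 were above the range, and of the 22 further on 6 were, as the plot of EBs against undifferentiated cells shows. The 110 Mb point was not set beforehand, so these counts only describe the plot.

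**Figure D4:**
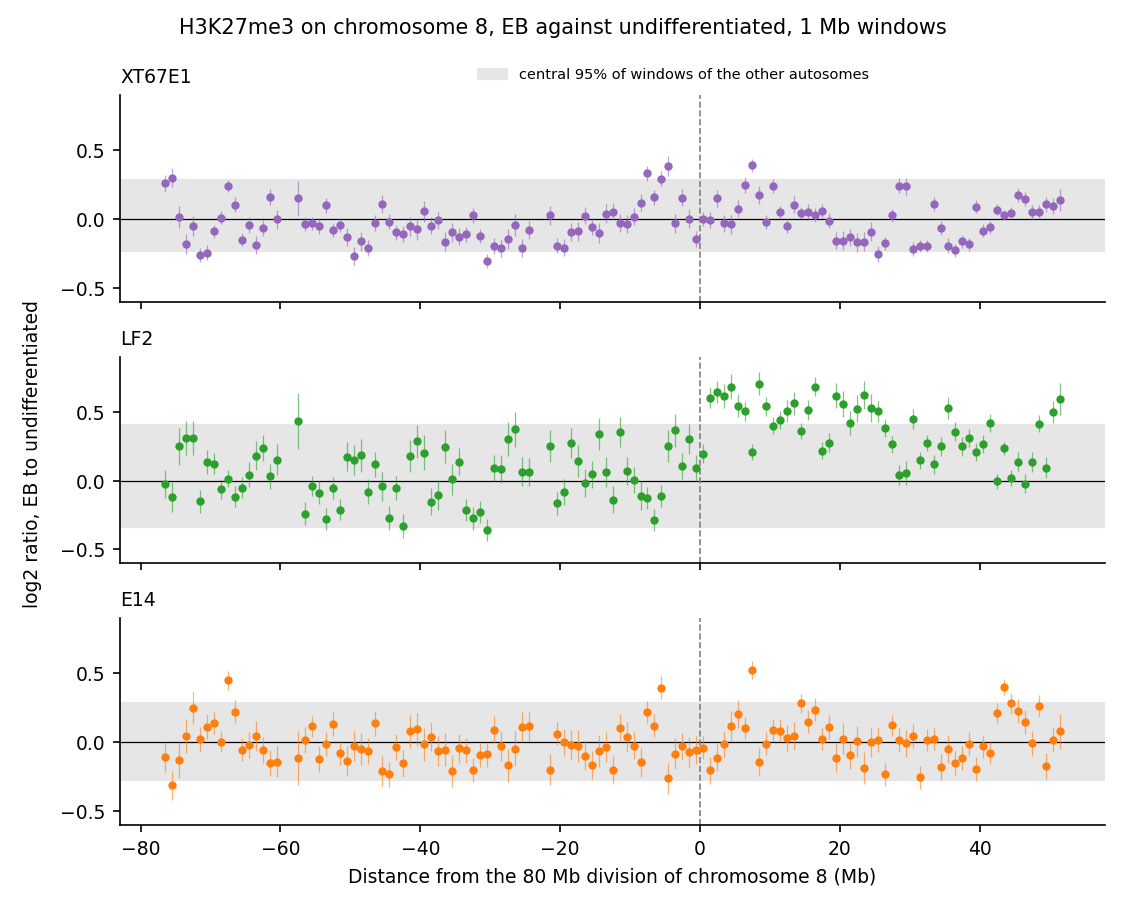
H3K27me3 in EBs against undifferentiated cells (log2 ratio, vertical axis) in 1 Mb windows of chromosome 8, placed by distance from the 80 Mb division (horizontal axis, Mb), in XT67E1, LF2 and E14. Bars are 95% counting intervals and the grey band is the central 95% of windows of the other autosomes; windows of LF2 beyond the division have a median of 0.41, those of the other lines lie around 0.

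Bins of 10 kb were called higher or lower where 2 libraries differed 2-fold or more and the exact interval of the ratio excluded 1. Against E14 the rule used this contrast, so the counts only describe the shift. In undifferentiated XT67E1 2333 of 12021 bins of chromosome 8 were higher than E14 (19.4%; 3.51% over all autosomes) and 52 lower (4.01% over all autosomes). In XT67E1 EBs 2305 of 12028 were higher (19.2%; 3.63% over all autosomes) and 7 lower (1.88% over all autosomes). Undifferentiated LF2 had 997 of 10561 higher (9.44%; 3.52% over all autosomes) and 158 lower (4.49% over all autosomes). LF2 EBs had 1855 of 10893 higher (17.0%; 3.31% over all autosomes) and 49 lower (1.95% over all autosomes), with 32.6% higher beyond 80 Mb and 4.10% before it.

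Once each bin was scaled to the reads of its own chromosome, 2.73% of chromosome 8 bins were higher in undifferentiated XT67E1, against 2.98% on the other autosomes, and 3.03% against 3.11% in XT67E1 EBs. The counts were then 328 higher and 425 lower bins in undifferentiated XT67E1 (lower 3.54%, against 3.70% on the other autosomes) and 365 and 200 in XT67E1 EBs (lower 1.66% against 1.73%). Undifferentiated LF2 had 344 higher (3.26% against 3.28%) and 549 lower bins (5.20% against 4.30%), and LF2 EBs 479 higher and 388 lower (3.56% against 1.80%). In LF2 EBs 4.40% remained higher, against 2.54%, and 2.82% when the parts before and beyond 80 Mb were scaled separately (an alternative added after seeing the data). In undifferentiated LF2, 5.92% of the bins beyond 80 Mb were lower even with separate scaling of the parts, against 4.30% on the other autosomes. Scaling to a chromosome's own reads centres its ratios by construction.

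**Figure D5:**
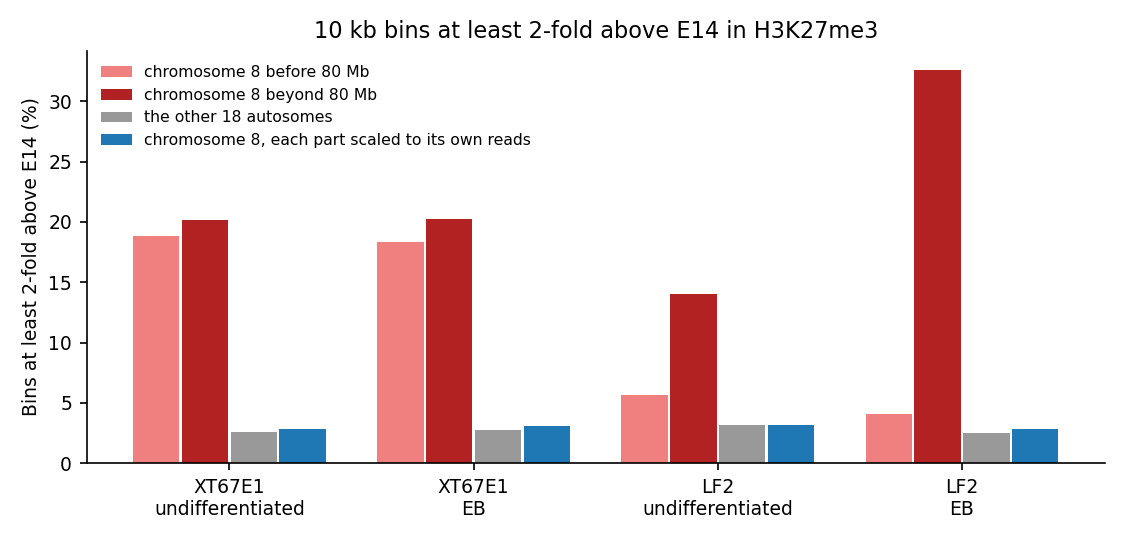
Share of 10 kb bins at least 2-fold above E14 in H3K27me3 (vertical axis, %) for undifferentiated cells and EBs of XT67E1 and LF2 (horizontal axis). Red bars are chromosome 8 before and beyond 80 Mb, scaled to all autosomal reads; grey bars are the other 18 autosomes on the same scale and blue bars are chromosome 8 with each of its parts scaled to its own reads. LF2 EBs reach 32.6% beyond 80 Mb, while the blue bars lie between 2.80% and 3.16% and the grey bars between 2.49% and 3.17%.

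Between conditions of a line, the share of called bins on chromosome 8 was near or under the background except in LF2. In LF2 EBs 847 of 10862 bins were higher than in undifferentiated LF2 (7.80%; 4.01% over all autosomes) and 148 lower (1.36%; 2.44% over all autosomes), with 13.3% higher beyond 80 Mb and 3.18% before it. Scaled to the reads of its own chromosome, LF2 EBs had 497 higher bins (4.58% against 3.75% on the other autosomes) and 305 lower (2.81% against 2.38%). XT67E1 EBs had 224 of 12239 bins higher (1.83%; 2.25% over all autosomes) and 54 lower (0.441%; 0.787% over all autosomes). With atRA 68 of 12208 were higher (0.557%; 0.836% over all autosomes) and 142 lower (1.16%; 2.09% over all autosomes). E14 EBs had 266 of 10583 higher (2.51%; 2.04% over all autosomes) and 286 lower (2.70%; 2.94% over all autosomes). In undifferentiated XT67E1 the median bin of chromosome 8 held 44 reads against 28 on the other autosomes, and the part of this depth in the shares of XT67E1 was not tested.

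In H3K4me3, 118 of 6612 bins with enough reads were higher after atRA (1.78%; 2.33% over all autosomes) and 184 lower (2.78%; 4.43% over all autosomes). In XT67E1 EBs 183 of 6913 were higher (2.65%; 2.57% over all autosomes) and 125 lower (1.81%; 3.14% over all autosomes). Among bins with at least 50 reads, the highest ratio after atRA was at chr8:28080001-28090000, with 114 reads against 18 (log2 2.60), and the same bin had 55 reads in EBs (1.56). The lowest after atRA were at chr8:15030001-15040000, with 11 reads against 81 (-2.77), and at chr8:87170001-87180000, inside the 87 Mb window described above, with 13 against 89 (-2.68). In EBs the lowest was at chr8:12480001-12490000, with 16 reads against 106 (-2.65), and the highest at chr8:35870001-35880000, with 120 against 37 (1.67). Each of these rests on 1 library per condition.

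H3K27me3 was next tested bin by bin over the 3 lines (limma, line as a block, all chromosomes, Benjamini-Hochberg adjusted p under 0.05), which asks for bins that moved alike in XT67E1, LF2 and E14. On chromosome 8, 21 of 11890 tested bins rose in EBs (0.177%; 0.0932% over all bins tested) and 4 fell (0.0336%; 0.0400% over all bins tested). All 25 had the same direction in the 3 lines, which the call over these same lines favours. Of the 21 that rose, 9 lay before 80 Mb and 12 beyond it, where LF2 as a whole was higher in EBs. Without LF2, 23 of 11484 bins were called (331 of 200496 over all bins), 14 of the risen ones before 80 Mb and 7 beyond it. Of the 25 bins, 14 were among them. Without E14, 68 of 11500 were called (621 of 194669 over all bins), 18 of the 25 among them, with 47 of the risen ones beyond 80 Mb. With no replicate block limma called 0 of 11890 (10 of 227430 over all bins). An unadjusted limma p under 0.05 was then reached by 614 of the 11890 and by 11711 of the 227430. Among the 25 called bins, 11 were H3K4me3-rich and 6 H3K27me3-rich, against 5.22% and 1.93% of the 11890 chromosome 8 bins tested, given without a test. The H3K27me3-rich class was chosen for many E14 reads, which are also in this fit. What this choice adds to its share was not tested.

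The strongest rise was at chr8:74840001-74850000, where H3K27me3 went from 2.62 to 8.17 RPM in XT67E1, from 1.60 to 11.1 RPM in LF2 and from 7.03 to 30.1 RPM in E14. Every line was several-fold higher in EBs, and the limma log2 change was 2.10 (SE 0.25, adjusted p = 2.5e-06). In the same bin H3K4me3 of XT67E1 went from 160.4 RPM to 59.0 RPM after atRA and to 75.1 RPM in EBs. A bin 20 kb away, chr8:74820001-74830000, rose by 1.69 (SE 0.31, limma adjusted p = 0.0048). The bin between them had a log2 change of 1.10 that did not pass the test (limma adjusted p = 0.17).

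The next rises were at chr8:93420001-93430000 (log2 1.74, SE 0.29, limma adjusted p = 0.0012), chr8:12870001-12880000 (1.57, SE 0.24, adjusted p = 0.00045) and chr8:123050001-123060000 (1.49, SE 0.25, adjusted p = 0.0013). At chr8:123050001-123060000 the reads went from 23 to 113 in XT67E1, from 28 to 68 in LF2 and from 39 to 76 in E14, and atRA gave 75 in XT67E1. Further called bins lay close to these, such as chr8:12470001-12480000, with 40 to 157 reads in XT67E1, 30 to 67 in LF2 and 29 to 74 in E14. Its neighbour at chr8:12480001-12490000 was the bin whose H3K4me3 was lowest in EBs relative to undifferentiated cells.

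The 4 bins that fell held more reads than the median chromosome 8 bin in undifferentiated cells of every line. At chr8:28280001-28290000 H3K27me3 went from 13.6 to 6.92 RPM in XT67E1, from 14.2 to 3.94 RPM in LF2 and from 10.7 to 3.62 RPM in E14 (log2 -1.42, SE 0.24, limma adjusted p = 0.0018). At chr8:35870001-35880000 it went from 18.6 to 11.1, from 22.9 to 5.10 and from 16.3 to 6.33 RPM (-1.40, SE 0.25, adjusted p = 0.0033). H3K4me3 of XT67E1 in the second of these bins went from 37 reads to 90 after atRA and 120 in EBs. The other falls were at chr8:67600001-67610000 (-1.30, limma adjusted p = 0.017) and chr8:60130001-60140000 (-1.12, adjusted p = 0.027).

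H3K4me3 of XT67E1 EBs was then read in the called bins. Of the 20 risen bins with enough H3K4me3 reads, 12 had lower and 8 higher H3K4me3 in EBs, with a median log2 ratio of -0.43. The 8 of them that were H3K4me3-rich were all lower, with a median of -0.83. In that class of 623 chromosome 8 bins the median was -0.23, and 68.1% were lower. The other 12 had a median of 0.00, with 4 lower and 8 higher. Over the 6290 chromosome 8 bins that were not H3K4me3-rich the median was 0.09, and 40.3% were lower. All 4 fallen bins had higher H3K4me3, with a median of 0.41. Over all 6913 chromosome 8 bins with enough reads the median was 0.00, and 42.8% were lower. XT67E1 was 1 of the 3 lines that chose these bins, in the other mark, and the counts are given without a test.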

How the data were processed

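Per the labels, chromatin immunoprecipitation and sequencing was run with an H3K4me3 antibody from Diagenode and an H3K27me3 antibody from T. Jenuwein. The files the authors deposited hold no value per row: they list read positions (start and end, an "other" unit), as intervals of 200 bp with no strand, on mm9, per the submitters' processing notes. The aligner is not given in the sources used here, nor are the read filters. Within a file all intervals were distinct.

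Interval midpoints were counted in 10 kb bins and scaled to autosomal reads (RPM). Ratios of density used sums of reads with exact conditional binomial 95% intervals. Per-bin log2 ratios added a pseudocount of 1 read and needed 20 reads in the 2 libraries. EBs were tested against undifferentiated cells with limma 3.58.1 in R 4.3.3 on log2(RPM + 1 read), with a trend on intensity, bins of 60 or more reads in the 6 libraries together and adjustment over 227430 bins, X included. The line pairs the libraries: the correlation between the 2 libraries of a line, after subtracting each condition's mean, was 0.19 for XT67E1, 0.08 for LF2 and 0.24 for E14. The limma p-values rest on 3 lines and on a spread pooled over bins.

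Named bins are the highest and lowest by change (5 each for limma, 2 each for 2 libraries with at least 50 reads), and the highest and lowest 1 Mb window per library. Bins given beside a neighbour, and the 87 Mb window between conditions, were picked after their values were seen. Nor was the 110 Mb point in the LF2 windows set beforehand. The chromosome, the division and the lists were chosen with earlier results of these data known. Scripts were tested on simulated data. Lists of chromosome 8 genes and marker genes could not be placed without an mm9 annotation and are not analysed here.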

Additional observations from a re-analysis of the deposited data

Results flagged for a closer look

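The log2 ratio of EBs to undifferentiated cells over the whole of chromosome 8 was positive in LF2 and E14 and negative in XT67E1. LF2 exceeded XT67E1 by 0.20 and E14 exceeded XT67E1 by 0.0436. With 1 library per line and condition, neither difference was tested. In E14 and XT67E1 the chromosome lay within the range of the other autosomes.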

How the results depend on the processing

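Every ratio to E14 of the whole chromosome 8 and of its 2 parts stayed above 1 under each alternative run. Between conditions, quiet bins alone turned small ratios: E14 EBs to undifferentiated E14 went from 1.04 to 0.989 beyond 80 Mb and from 0.998 to 1.01 before it, and XT67E1 after atRA from 0.995 to 1.02 before it. With the median instead of the pooled density of the other autosomes, the ratios were 1.54 in undifferentiated XT67E1, 1.56 after atRA, 1.25 in undifferentiated LF2 and 1.39 in LF2 EBs. In quiet bins alone, of chromosome 8 and of the other autosomes, they were 1.54, 1.57, 1.22 and 1.35, and 1.52 in XT67E1 EBs. Without chromosome 14 (added after seeing the data), LF2 had 1.27 in undifferentiated cells and 1.43 in EBs, with 1.14 before and 1.73 beyond 80 Mb in EBs. With the division at 75 Mb, undifferentiated LF2 had 1.14 before and 1.38 beyond, and LF2 EBs 1.68 beyond. At 85 Mb, undifferentiated LF2 had 1.43 beyond and LF2 EBs 1.18 before. Quiet bins gave 1.16 and 1.35 in undifferentiated LF2 and 1.12 and 1.83 in LF2 EBs. Counting interval starts or keeping bins with at least 20 reads moved no ratio by more than 0.0162%. Both leave almost every read in place, with only 97 chromosome 8 bins under 20 reads, so they could hardly move a sum of reads.

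The 25 limma calls on chromosome 8 depended on the pairing: with no replicate block there were 0 calls. Of 11890 tested bins, 614 then had an unadjusted p under 0.05, against 1103 with the block. Over all 227430 tested bins these counts were 11711 and 17682. With no read minimum there were 13 of 12452 (156 of 253213 over all bins), and with a pseudocount of 5 reads 39 of 11890 (494 of 227430). Leaving out 1 line in turn gave 23 to 68, of which 14 to 18 were among the 25. Over all bins these fits called 331 to 621, of 125265 to 200496 tested. With 2 lines limma drew its spread from all bins pooled, so these p-values hold no spread of the bin itself. The cause was not tested. The mean over 3 lines ran from 0.00 to 0.11 (log2) when 1 line was left out. With 2 times the mean as the threshold, H3K4me3-rich bins gave ratios to E14 of 1.35 to 1.70 and H3K27me3-rich bins of up to 1.61. Size calls fell with a pseudocount of 5 reads, here with the share on the other autosomes beside that of chromosome 8. Higher bins against E14 were 1106 in undifferentiated XT67E1 (9.20% against 0.658%), 892 in XT67E1 EBs (7.42% against 0.550%) and 648 in undifferentiated LF2 (6.14% against 1.88%), and lower bins 76 in undifferentiated LF2 (0.720% against 2.59%) and 22 in LF2 EBs (0.202% against 1.07%). Against undifferentiated cells, higher bins were 44 after atRA (0.360% against 0.465%), 110 in XT67E1 EBs (0.899% against 1.18%), 539 in LF2 EBs (4.96% against 2.26%) and 124 in E14 EBs (1.17% against 1.02%). Lower bins were 65 (0.532% against 0.987%), 20 (0.163% against 0.331%), 80 (0.737% against 1.39%) and 169 (1.60% against 1.80%) in the same order, and 80 for H3K4me3 in XT67E1 EBs (1.16% against 2.26%). With no read minimum, 210 bins (1.69% against 1.74%) and 294 bins (2.36% against 2.05%) were higher in H3K4me3 after atRA and in EBs. With each part of the chromosome scaled to its own reads, higher and lower bins against E14 were 337 (2.80% against 2.98%) and 417 (3.47% against 3.70%) in undifferentiated XT67E1, 367 (3.05% against 3.11%) and 202 (1.68% against 1.73%) in XT67E1 EBs, 334 (3.16% against 3.28%) and 496 (4.70% against 4.30%) in undifferentiated LF2, and 307 (2.82% against 2.54%) and 198 (1.82% against 1.80%) in LF2 EBs. LF2 EBs then had 441 bins higher than undifferentiated LF2 (4.06% against 3.75%). Depth limits single bins most in H3K4me3, where the median chromosome 8 bin held 10 or 11 reads, and next in LF2 and E14, with 16 to 21.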
